A study of Drosophila melanogaster with 3 samples.

Results

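Sites bound by CG10209 carrying a C-terminal tag of green fluorescent protein (GFP) were mapped by chromatin immunoprecipitation and sequencing (ChIP-seq) in whole Drosophila melanogaster embryos 0 to 24 h old, of both sexes, with an antibody against GFP. The 694 peaks described here are those whose summit lay 501 to 1000 bp from the nearest annotated transcript start, out of 6307 peaks that passed the authors' filter on the irreproducible discovery rate (IDR), which weighs how regions rank in different replicates. They made up 11.0% of all peaks (95% binomial interval 10.2 to 11.8%). The others lay within 500 bp of a start (2701 promoter peaks) or more than 1000 bp away (2912 distal peaks). All 3 samples, numbered 1 to 3 in the labels as biological replicates, belonged to 1 group, the strain CG10209-GFP, so there was no second condition. The line is transgenic and stably expresses the tagged protein, and the labels give fragments of 200 to 800 bp for every sample. The labels name no promoter driving the tagged protein and no cell type, so a peak averages over all tissues of the embryo and over its whole development. Whether the replicates came from separate collections is stated only as far as the word biological, and p-values measure the spread between these samples. Read depth is unknown, since the lists hold regions and no counts.

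Sequence at some distance from a start, but still near it, is neither the core promoter, where RNA polymerase II is loaded, nor necessarily a distant enhancer. In the compact fly genome it holds proximal regulatory elements, the first introns of genes and alternative promoters. Core promoters of flies often carry the DNA replication-related element (DRE) and other core promoter motifs, whereas enhancers carry sites for developmental factors such as GATA factors. Whether peaks at this distance were like promoter peaks or like distal peaks was the comparison made throughout.

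The sequences around the strongest summits are shown first, because the motif results below rest on such windows. Each is 201 bases of the forward strand of dm6 (genome sequence from RefSeq, Release 6) centred on the summit of one of the 20 strongest peaks at this distance, named by its nearest gene. Capitals mark matches, on either strand, to any of the 18 motifs searched. The windows of sp3, chif and lncRNA:CR45643 had no match. In replicates 1, 2 and 3, the summits of the region over the lncRNA:CR44619 window lay at -1039, -1529 and -947 bp from its centre (negative is to the left). For the lncRNA:CR45643 window, the summit of replicate 2 lay at -994 bp.

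Lk6 (chr3R:11760942-11761142): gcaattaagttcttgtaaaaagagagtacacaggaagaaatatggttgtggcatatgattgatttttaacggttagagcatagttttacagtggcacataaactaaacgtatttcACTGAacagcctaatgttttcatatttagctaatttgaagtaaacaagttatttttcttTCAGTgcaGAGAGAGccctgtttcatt
CG9663 (chr2L:3302077-3302277): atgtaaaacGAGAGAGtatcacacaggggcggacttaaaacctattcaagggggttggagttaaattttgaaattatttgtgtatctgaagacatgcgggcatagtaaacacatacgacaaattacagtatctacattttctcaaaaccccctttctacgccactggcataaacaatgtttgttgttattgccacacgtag
lncRNA:CR44619 (chrX:12752271-12752471): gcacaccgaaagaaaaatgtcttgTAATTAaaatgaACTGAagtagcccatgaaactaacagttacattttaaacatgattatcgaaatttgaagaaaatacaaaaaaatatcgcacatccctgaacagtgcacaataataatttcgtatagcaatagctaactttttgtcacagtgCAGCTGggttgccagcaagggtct
sp3 (chr3R:21520280-21520480): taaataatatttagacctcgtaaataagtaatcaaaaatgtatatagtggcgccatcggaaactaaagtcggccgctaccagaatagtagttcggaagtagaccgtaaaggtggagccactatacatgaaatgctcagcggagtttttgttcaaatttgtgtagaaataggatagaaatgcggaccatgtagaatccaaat
chif (chr2L:16351164-16351364): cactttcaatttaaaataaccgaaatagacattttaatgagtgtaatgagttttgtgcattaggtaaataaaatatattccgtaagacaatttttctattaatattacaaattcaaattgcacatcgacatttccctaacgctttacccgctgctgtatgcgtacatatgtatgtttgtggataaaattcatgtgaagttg
lncRNA:CR45643 (chr3R:16222381-16222581): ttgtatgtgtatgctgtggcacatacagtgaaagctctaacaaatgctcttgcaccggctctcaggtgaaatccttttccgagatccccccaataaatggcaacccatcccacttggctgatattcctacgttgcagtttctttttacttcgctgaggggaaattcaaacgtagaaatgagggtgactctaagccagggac
lncRNA:CR46035 (chr3R:17704321-17704521): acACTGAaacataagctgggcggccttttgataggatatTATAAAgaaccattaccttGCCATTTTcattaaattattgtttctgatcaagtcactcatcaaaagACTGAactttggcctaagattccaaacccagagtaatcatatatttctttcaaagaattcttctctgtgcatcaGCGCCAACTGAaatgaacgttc

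The next windows, of 60 bases each, show words of 8 bases that sit near peak summits. In the first 3 the capitals mark CACTGAGA or its reverse complement, and in the last 2 CACTGTGC or its reverse complement. They are among the strongest of the peaks holding each word, and were picked after the values of the words had been seen.

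lncRNA:CR43337 (chr3L:621618-621677): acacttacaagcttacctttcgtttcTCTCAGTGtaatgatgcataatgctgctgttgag
lncRNA:CR45940 (chr3L:19033216-19033275): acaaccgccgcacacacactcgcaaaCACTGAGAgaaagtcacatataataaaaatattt
Tmhs (chr3L:1886292-1886351): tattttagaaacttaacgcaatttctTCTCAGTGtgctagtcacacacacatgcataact
CG31635 (chr2L:6647275-6647334): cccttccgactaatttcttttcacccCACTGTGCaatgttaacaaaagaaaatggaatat
CG32767 (chrX:5083678-5083737): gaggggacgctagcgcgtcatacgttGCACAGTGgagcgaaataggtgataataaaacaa

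CG10209-GFP peaks were denser 501 to 1000 bp from a start than farther away, but only slightly denser than over the genome as a whole. The 13.52 Mb of sequence at this distance held 51.3 peaks per Mb (exact Poisson 95% interval 47.6 to 55.3, counting error only), against 148 per Mb within 500 bp, 41.7 per Mb at 1001 to 1500 bp and 46.0 per Mb over the genome. Among the 6307 regions of highest signal in each replicate, called its top regions below, 728, 652 and 701 lay at this distance in replicates 1, 2 and 3, which is 51.3 ± 2.85 per Mb (SD, n = 3). Pooled regions outside the IDR list, background included, lay there at 173.7 per Mb, against 163.1 per Mb over the genome.

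The surplus over sequence at 1001 to 1500 bp lay on the upstream side and close to the inner limit. Upstream of a start, the density was 104.3 peaks per Mb at 501 to 600 bp, then 70.3, 50.6, 40.1 and 43.7 per Mb in the following steps of 100 bp. Downstream, the same 5 steps held 36.6, 48.2, 47.7, 38.7 and 44.0 per Mb, with no fall over distance. Over all of 501 to 1000 bp, downstream sequence held 43.0 per Mb, against 42.2 per Mb at 1001 to 1500 bp. Farther out, downstream sequence was sparser, with 35.3 per Mb at 1501 to 2000 bp and 28.1 per Mb in all distal sequence downstream of a start. Upstream sequence at 1001 to 1500 bp held 40.9 per Mb, so the upstream density had come down to that level by 801 bp. Pooled regions outside the IDR list had no steady slope: upstream they stood at 226.6, 167.4, 173.1, 188.8 and 218.6 per Mb in the same steps.

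**Figure D1:**
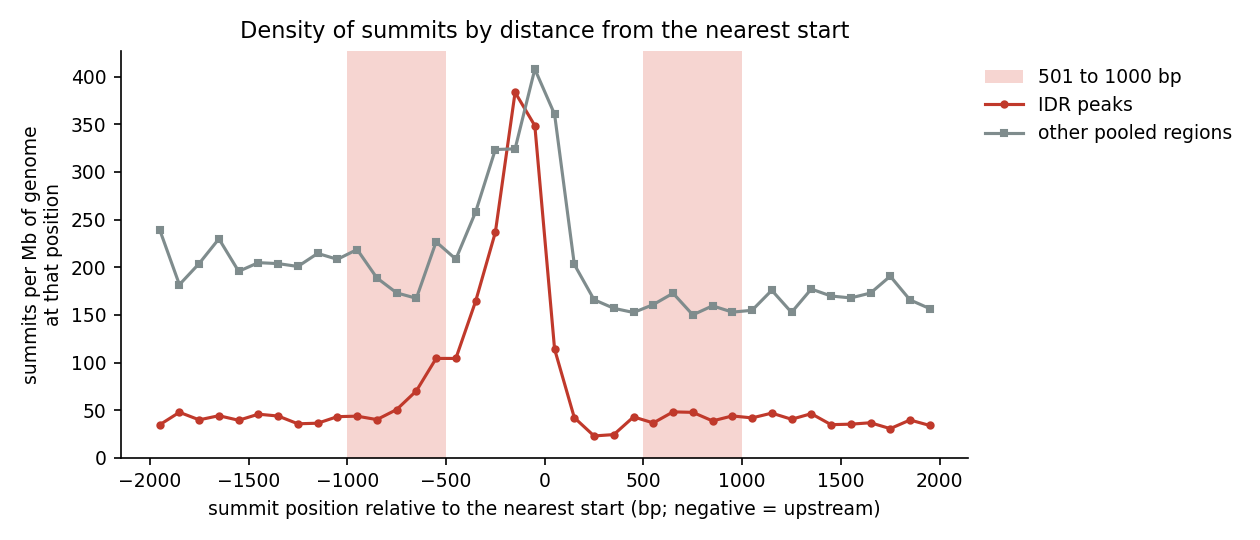
Summits per Mb of genome sequence (vertical axis) by position relative to the nearest start (horizontal axis, bp, negative upstream) in steps of 100 bp, for IDR peaks and for pooled regions outside the IDR list; shading marks 501 to 1000 bp. IDR peaks decline upstream to 40.1 per Mb at 801 to 900 bp and stay between 36.6 and 48.2 per Mb in the shaded steps downstream.

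Upstream and downstream peaks were equal in number, 347 each, although only 40.3% of the sequence at this distance is upstream of its nearest start. In the replicates' own top regions the upstream share was 50.7% in replicate 1, 48.0% in replicate 2 and 48.9% in replicate 3. It exceeded the share of bases by 8.91 ± 1.36 percentage points (SD, n = 3), and did so in 3 of 3 replicates (two-sided exact sign-flip permutation test, p = 0.25, adjusted over 7 comparisons 0.583). With 3 replicates, 0.25 is the smallest p this test can give, so no comparison made with it can reach 0.05. Coding sequence, which held 5 of the 694 peaks, made up 44.0% of downstream bases and 16.2% of upstream bases at this distance. What part that plays in the excess was not tested. The excess also turned on the choice of starts. With only the outermost start of each gene, 39.7% of 584 peaks lay upstream, and the replicates' mean difference from the share of bases was -1.77 percentage points. Promoter peaks were 80.8% upstream and distal peaks 39.3%, and pooled regions outside the IDR list were 45.2% upstream at 501 to 1000 bp.

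By annotation the peaks were intronic or intergenic, and almost never in coding sequence. Introns held 467 of 694 (67.3%), against 32.7% of the bases at this distance. Intergenic sequence held 24.2%, against 21.2% of bases. Coding sequence held 5 peaks (0.721%), against 32.8% of bases. The 3' untranslated regions held 0.865%, against 7.14% of bases, while 5' untranslated regions held 3.17%, against 2.69%, and noncoding exons 3.75%, against 3.48%. The scarcity in coding sequence was not particular to this distance, with 0.518% of promoter peaks and 0.412% of distal peaks there. The peaks' intron share was near that of distal peaks (69.4%), and promoter peaks had 26.3%. The shares of distal and promoter peaks were not set against the bases at their own distances.

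**Figure D2:**
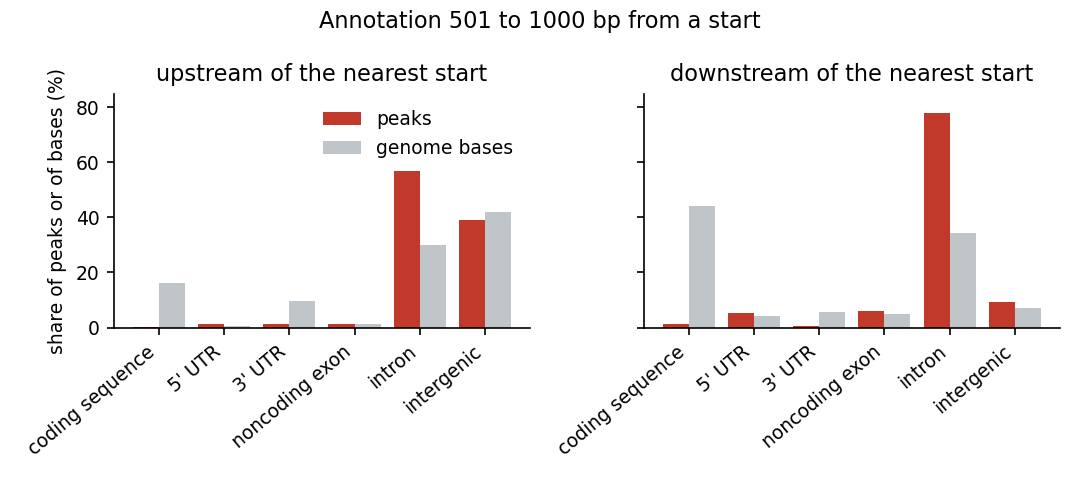
Share (%) of peaks and of genome bases 501 to 1000 bp from a start in each annotated feature, upstream (left) and downstream (right) of the nearest start. Coding sequence holds 44.0% of downstream bases but 1.15% of downstream peaks, and introns hold 77.8% of those peaks.

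Many upstream peaks lay inside a gene rather than before it. Of the 347 upstream peaks, 142 were in an intron of their nearest gene, ahead of an internal start, 55 were in an intron of another gene and 136 were intergenic. Of the 347 downstream peaks, 255 were in an intron of the nearest gene. The nearest start was the gene's outermost one for 59.4% of the peaks, fewer than among promoter peaks (74.3%) and distal peaks (68.9%). Another gene also had a start within 1000 bp of 76 summits, so the nearest gene is a label of position and not a target. The nearest gene was protein coding for 570 peaks, and otherwise a noncoding RNA gene (111), a tRNA gene (7), a snoRNA gene (3) or a pseudogene (3).

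Signal values, which are the authors' own score of each region, were between those of the other classes. They spanned 194.7 to 3889 with a median of 346, against medians of 380 for promoter peaks and 312 for distal peaks. The peaks made up 11.7% of the 10% of all peaks with the highest signal and 12.9% of the 10% with the lowest, close to their 11.0% of all peaks. Upstream and downstream peaks had medians of 351 and 345. By step of 100 bp the median was 384 at 501 to 600 bp, then 320, 349, 306 and 354, with no order over distance.

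Ranks in the replicates gave the same order. The pooled signal comes from these same replicates, so their ranks are no independent check of it. The median percentile rank was 53.6, 50.5 and 50.9 in replicates 1, 2 and 3, against 57.6, 57.5 and 57.3 for promoter peaks and 45.2, 43.4 and 43.8 for distal peaks. The classes did not overlap between replicates. The difference was -5.79 ± 1.60 from promoter peaks, lower in 3 of 3 replicates, and 7.53 ± 0.751 from distal peaks, higher in 3 of 3 (SD, n = 3, exact sign-flip permutation test, p = 0.25 and adjusted p = 0.583 for each). Just beside the distance limits the peaks were too few to compare signals. The 5 peaks at 496 to 500 bp had a median signal of 311 (203.9 to 454.7). The 7 at 501 to 505 bp had one of 380 (218 to 2698). The 6 at 996 to 999 bp had 314 and the 2 just past 1000 bp 297.

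All of the 20 strongest peaks at this distance were overlapped by a top region of every replicate, and none ranked below 247 in any of them. They were picked by pooled signal from the IDR list, a choice that favours high ranks in each replicate. Of these, 12 lay upstream, 13 were in introns, 4 were intergenic and 3 were in noncoding exons. The strongest, with a pooled signal of 3889, lay in an intron of Lk6, which encodes a kinase that phosphorylates the translation factor eIF4E. It was 963 bp upstream of an internal start and ranked 20, 15 and 11 in replicates 1, 2 and 3, with signals of 1281, 1046 and 1568 in their lists, whose scales differ. Its window, shown above, holds the GAGA motif near its right end.

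The other strongest peaks follow with the nearest gene of each. HmgZ, which encodes a chromosomal protein of the HMG-box family, had an intronic peak of signal 3846, with ranks of 15, 35 and 13. Adf1, a transcription factor gene, had one of 2706, with ranks of 43, 118 and 43. ph-d, a subunit gene of Polycomb repressive complex 1, had a peak 815 bp upstream (2237, ranks 90, 96 and 92). Of the peaks at HmgZ, Adf1 and ph-d, the ranks of the one at ph-d lay closest together. wde, whose product assists a histone H3 lysine 9 methyltransferase, had one 553 bp downstream (2067, ranks 94, 124 and 118). brk, which encodes a repressor of Dpp target genes, had one 716 bp upstream (1856, ranks 93, 158 and 209). All of these were in the top regions of every replicate.

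The nearest genes of the others were of varied kinds. chif, related to the Dbf4 subunit that activates the replication kinase Cdc7, had a peak of 2509 (ranks 81, 53 and 63). InR, the insulin receptor gene, had one of 1846, 655 bp upstream of an internal start (ranks 192, 139 and 140). jp, which encodes junctophilin, had one of 1835 and LPCAT, a lysophospholipid acyltransferase gene, one of 2019. The remaining genes were CG9663 with peaks of 3726 and 2059, sp3 (2609), CG31635 (2032), CG4496 (1946), Reph (1799) and 3 noncoding RNA genes. The peak at sp3 stood alone, 32414 bp from the next peak, with ranks of 30, 77 and 96.

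Some of the strongest summits share an interval. Both peaks of lncRNA:CR44619 (3448 and 2698) lay in 1 interval with the promoter peak of the same gene (3179), and in each replicate they fell in 1 region, ranked 12, 2 and 32. Both peaks of CG9663, 200 bp apart, likewise fell in 1 region, ranked 18, 16 and 27. Of all 694 peaks, 102 (14.7%) overlapped another peak, against 15.5% of promoter peaks and 9.65% of distal peaks. In replicates 1, 2 and 3, 93, 106 and 99 of them were matched to a region that also served another peak, so their replicate values are not their own. Left without peaks that overlap another, an alternative chosen after seeing the data, 592 peaks and 43.8 per Mb remained.

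**Figure D3:**
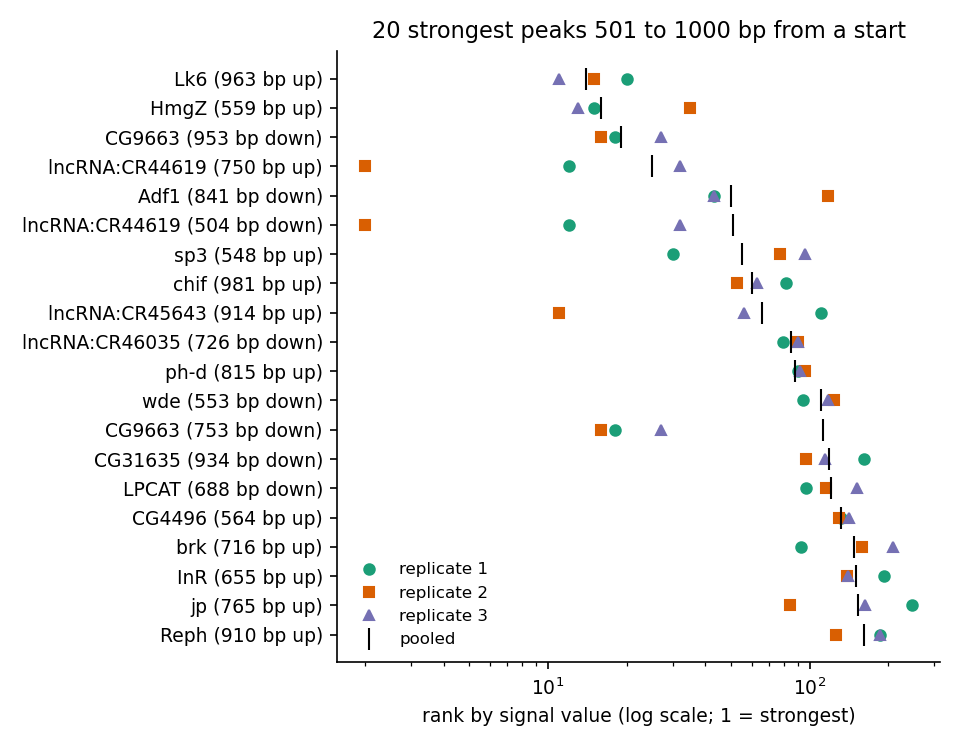
Rank by signal (log axis, 1 is the strongest) of the 20 strongest peaks 501 to 1000 bp from a start, named by nearest gene with distance and side, in each replicate and in the pooled list. All ranks lie at 247 or better, and paired summits of lncRNA:CR44619 and of CG9663 have the same replicate ranks because 1 region covers both.

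Most peaks recurred in the replicates, at shares that differed from those of the other classes by less than the spread between replicates. The IDR filter weighs ranks in the replicates, so the choice of peaks itself favours high shares in every class. Top regions overlapped 86.3%, 82.0% and 91.8% of them in replicates 1, 2 and 3. Over all peaks the shares were 82.3%, 83.4% and 90.9%. The mean was 86.7 ± 4.91%, against 85.1 ± 7.83% of promoter peaks and 85.6 ± 5.15% of distal peaks (SD, n = 3, exact sign-flip permutation test, p = 0.75 and 0.5, adjusted 0.75 and 0.7). The sign of the difference varied: against promoter peaks the share was higher in replicates 1 and 3 and lower in replicate 2. The comparison depended on how many regions count as top. With the 3153 strongest regions of each replicate, the difference was 8.18 ± 0.786 percentage points from distal peaks, higher in 3 of 3 replicates, and -4.58 ± 2.94 from promoter peaks, lower in 3 of 3 (SD, n = 3, exact sign-flip permutation test, p = 0.25 for each). All 3 replicates covered 478 peaks (68.9%), and 5 were covered by none.

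Replicate 1 stood apart, and the classes lost different shares of peaks there. No region at all, top or not, overlapped 57 of the 694 peaks (8.21%) in replicate 1, against 18.1% of promoter peaks and 4.36% of distal peaks. In replicates 2 and 3 the share was 1.73% and 0.288%. Replicate 1 had 4296 regions with a q of 0.01 or less, a −log10 q of 2, against 9183 and 9015 in replicates 2 and 3. A region at that level covered 69.5%, 93.9% and 98.1% of the 694 peaks. What part this plays in the comparisons was not tested.

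**Figure D4:**
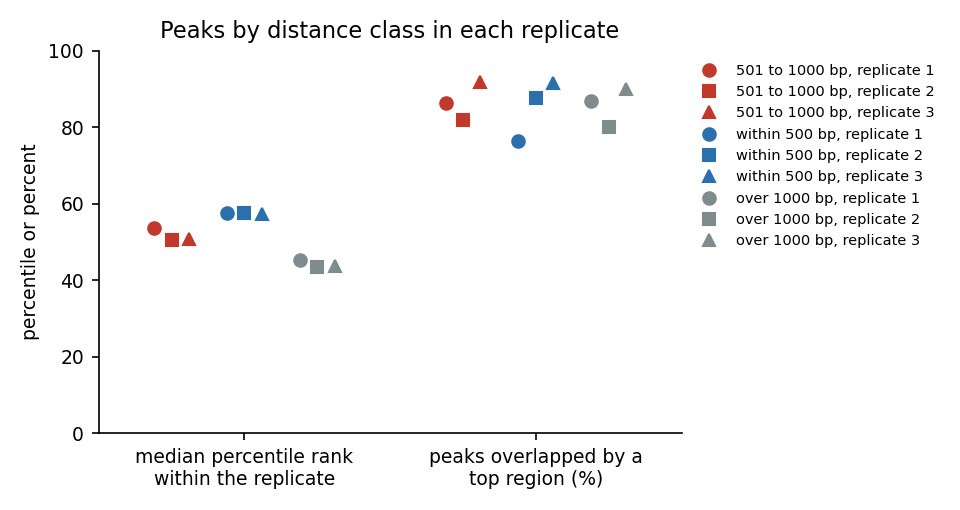
Median percentile rank (left) and percent of peaks overlapped by a top region (right) for peaks 501 to 1000 bp, within 500 bp and over 1000 bp from a start, 1 point per replicate. Ranks separate the classes in every replicate, and overlap does not.

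Summit positions were stable enough to keep most peaks at this distance. The median shift between the pooled summit and that of the replicate was 21, 16 and 11 bp in replicates 1, 2 and 3, and the replicate's summit still lay 501 to 1000 bp from a start for 91.4%, 88.1% and 90.8% of peaks with a region. Of the rest, more moved to within 500 bp (6.59%, 8.65% and 6.94%) than beyond 1000 bp (2.04%, 3.23% and 2.31%).

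A promoter peak often stood at the same gene, at a share near that of the peaks just beyond 1000 bp. The nearest gene also had a promoter peak, at any of its starts, in 295 of 694 cases (42.5%), against 311 of 759 peaks (41.0%) at 1001 to 2000 bp. In these 295 cases the gene's strongest promoter peak lay a median of 1089 bp from the summit. It lay within 1000 bp for 124 of the 694 peaks (17.9%). Over all distal peaks the share was 35.3% (95% binomial interval 33.6 to 37.1%), below the interval at 501 to 1000 bp of 38.8 to 46.3%. Where the nearest gene was protein coding, the share was 46.0%, while 21.5% of all coding genes had a promoter peak. Genes of many starts can be near more peaks, and this was not tested. The share depends on how many peaks and how wide a promoter are counted: it was 29.1% among the 3153 strongest peaks and 24.9% with promoters of 250 bp.

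The peak away from the start was more often the weaker of such a pair. It had the lower signal in 173 of 295 cases, with a median ratio of 0.845 to the promoter peak and quartiles of 0.453 and 1.5. Where a gene had several promoter peaks the strongest was taken, a choice that favours a lower signal of the peak away from the start. The 5 pairs given next were picked by the signal of the peak away from the start, which favours pairs where that peak is the stronger. At Lk6 the signals were 3889 and 221.5 at the promoter, 3448 bp away, and at chif 2509 and 548.2, 828 bp away. At lncRNA:CR46035 they were 2282 and 797.6. At lncRNA:CR44619, the stronger summit was above the promoter peak (3448 and 3179) and the weaker summit below it (2698 and 3179). Another peak of any class lay within 1000 bp of 33.7% of the 694 peaks, against 26.1% of promoter peaks and 22.9% of distal peaks.

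Few genes had several such peaks. The 694 peaks had 629 nearest genes, of which 571 had 1 peak, 52 had 2, 5 had 3 and 1 had 4. CG42258 had the 4, with signals of 316.5, 1194, 366.7 and 596.3, all in introns. Those with 3 were shep, an RNA-binding protein gene, NFAT, a transcription factor gene, Tlk, which encodes Tousled-like kinase, aop, an ETS-family repressor gene of receptor tyrosine kinase signalling, and CG13868. Their signals lay between 222.1 and 1220, and 14 of these 15 peaks were intronic. Some share a region: the 2 summits of NFAT at 1220 and 596.9 are 225 bp apart.

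Of the core promoter motifs, the DRE and motifs 1, 5, 6 and 7 were rare at the summits, while the short TATA box and initiator were frequent. Windows of 100 bp either side were searched on both strands. The DRE, TATCGATA, which reads the same on both strands, was in 4 of 694 windows (0.576%), against 2.54% of all peaks. At the replicates' own summits it was in 0.471%, 0.587% and 0.578%, against 4.34%, 5.64% and 5.58% of promoter peaks and 0.251%, 0.243% and 0.275% of distal peaks. So it was rarer than at promoter peaks in 3 of 3 replicates. The slight excess over distal peaks rests on 4 windows, and the intervals overlap, 0.157 to 1.47% against 0.165 to 0.631% at the pooled summits. Since the replicates' summits lie a median of 11 to 21 bp from the pooled ones, their windows read nearly the same genome sequence, so agreement of the 3 replicates is no independent check of any motif difference given here. Core promoter motif 1 was in 0 of 694 windows, which allows up to 0.53% (exact binomial interval), against 0.983% of all peaks, and core promoter motif 7 in 12 (1.73%), against 4.57%. At the replicates' summits motif 7 averaged 1.83 ± 0.306%, against 8.45 ± 0.951% of promoter peaks and 1.61 ± 0.148% of distal peaks (SD, n = 3). Core promoter motif 5 was in 3 windows (0.432%), against 1.03% of all peaks, and motif 6 in 1 (0.144%), against 0.587%. The TATA box, TATAAA, was in 252 windows (36.3%), against 36.8% of all peaks, and in 177 of the flanking windows centred 1000 bp to the right. Where the nearest start lies to the right, such a flank is centred within 500 bp of it, so the flanks are not plain background. The DRE was in 10 of these flanks (1.44%), against 4 of the summit windows. At the replicates' summits it averaged 36.7 ± 1.03%, against 38.7 ± 1.00% of promoter peaks and 35.6 ± 0.325% of distal peaks (SD, n = 3).

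GATA and GAGA sites were at slightly higher shares than in either other class, while homeodomain, Zelda and ETS motifs were not. GATA sites, TGATAAG, were in 39 windows (5.62%), against 4.57% of all peaks, and in 22 of the flanks. At the replicates' summits they averaged 5.98 ± 0.323%, against 4.01 ± 0.182% of promoter peaks and 4.90 ± 0.202% of distal peaks, higher in 3 of 3 replicates both times. At the pooled summits the binomial interval, 4.03 to 7.60%, overlapped those of promoter peaks (3.12 to 4.61%) and distal peaks (4.25 to 5.87%). GAGA sites, GAGAGAG, were in 35 windows (5.04%), against 3.19% of all peaks, but also in 39 of the flanks. Their replicate mean was 4.67 ± 0.238%, against 3.65 ± 0.0966% of promoter peaks and 2.15 ± 0.106% of distal peaks (SD, n = 3). At the pooled summits their interval, 3.54 to 6.94%, overlapped that of promoter peaks (2.955 to 4.40%) and lay above that of distal peaks (1.82 to 2.95%). GAGA sites were no more frequent at the summits than in their flanks, which are not plain background. The homeodomain core TAATTA was in 117 windows (16.9%), against 17.7% of all peaks and 94 of the flanks, and averaged 16.9%, against 18.6% of promoter peaks and 17.4% of distal peaks. The Zelda motif CAGGTAG was in 3 windows (0.432%), against 0.856% of all peaks, and averaged 0.643%, against 0.755% and 0.967% of those classes. The ETS motif CCGGAAGT was in 1 window (0.144%), against 0.381% of all peaks, too few to compare.

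Other motifs placed the peaks between or beside the other classes. The E-box CAGCTG was in 46 windows (6.63%), against 7.9% of all peaks and 64 of the flanks, and averaged 7.11%, against 10.4% of promoter peaks and 6.0% of distal peaks. The Pho motif GCCATNTT, bound by the Polycomb recruiter Pleiohomeotic, was in 23 windows (3.31%), against 3.19% of all peaks and 25 of the flanks. The CTCF core AGNNGGCGC was in 18 (2.59%), against 2.62% and 17 of the flanks. The initiator TCAGT, a word of 5 bases that short windows hold often, was in 235 (33.9%), against 35.2% and 222 of the flanks. It averaged 32.5%, against 31.9% of promoter peaks and 38.6% of distal peaks, lower than at distal peaks in 3 of 3 replicates. The replicate means of the CTCF core and the Pho motif lay within 1 percentage point of both classes.

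Related words of 8 bases were concentrated at the summits. CACTGAGA was in 22 windows (3.17%) and 6 of the flanks, against 3.69% of all peaks. TACACTGA, which shares the letters CACTGA with it, was in 22 (3.17%) and 2 of the flanks, against 3.12% of all peaks. CACTGTGC was in 33 (4.76%) and 10 of the flanks, against 3.9% of all peaks. The initiator read on the other strand, ACTGA, lies inside CACTGAGA and TACACTGA, so those counts are not separate. At the replicates' summits CACTGAGA was in 2.20%, 2.64% and 2.46%, against 2.03%, 1.46% and 1.75% of promoter peaks and 6.21%, 5.42% and 5.71% of distal peaks. TACACTGA averaged 2.89 ± 0.0985%, against 2.15 ± 0.139% and 4.42 ± 0.314% of those classes, and CACTGTGC 4.41 ± 0.583%, against 3.67 ± 0.229% and 3.90 ± 0.254% (SD, n = 3). CACTGAGA and TACACTGA were thus lower than at distal peaks in 3 of 3 replicates, while CACTGTGC was higher in 2 and lower in 1.

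Each motif difference that had 1 sign in all 3 replicates had p = 0.25 and an adjusted p of 0.346 over 36 comparisons (exact sign-flip permutation test), so none passed 0.05. The words were found in these data by an earlier search over all peaks, so their presence at the 694 summits is not independent evidence. Median signals were somewhat higher with a word than without it, a difference that was not tested. They were 357 with CACTGAGA and 345 without it, 367 with CACTGTGC and 341 without it, and 382 with TACACTGA and 344 without it.

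**Figure D5:**
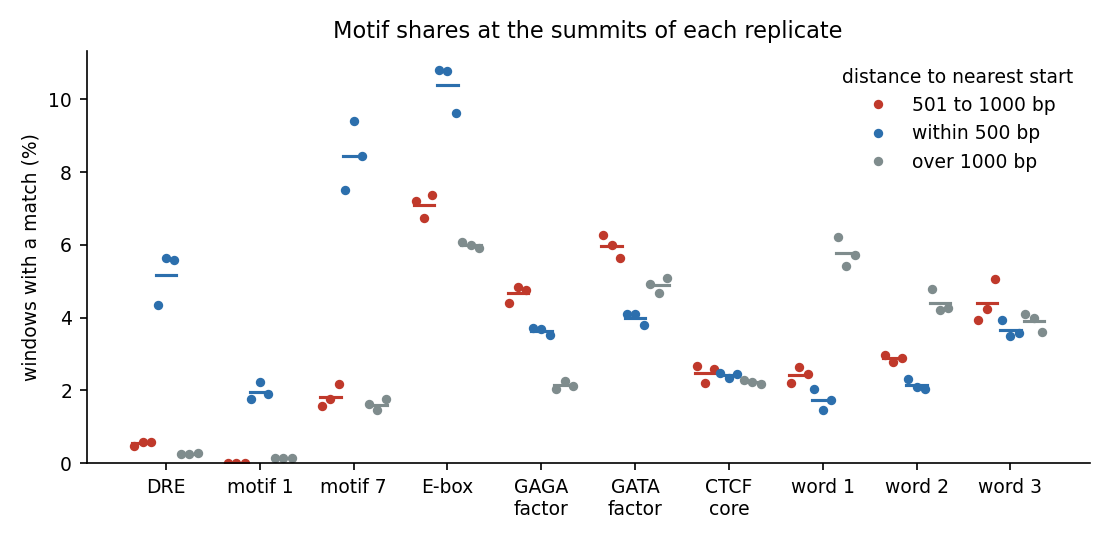
Percent of windows, 100 bp either side of the replicate's own summit, that hold a match, for peaks 501 to 1000 bp (red), within 500 bp (blue) and over 1000 bp (grey) from a start; points are replicates 1 to 3 from left to right and lines their means. Word 1 is CACTGAGA, word 2 TACACTGA and word 3 CACTGTGC; the red points sit near the grey ones for the DRE and core promoter motifs 1 and 7 and below them for words 1 and 2.

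Base composition at the summits was close to that of the other classes. A and T made up 64.3% of the bases around the pooled summits, against 64.3% at promoter and 64.4% at distal peaks. At the replicates' own summits the difference was -0.0735 ± 0.270 percentage points from promoter peaks and 0.115 ± 0.175 from distal peaks (SD, n = 3, exact sign-flip permutation test, p = 0.75 and 0.5, adjusted 0.75 and 0.7), and either sign turned with windows of 50 bp. The flanks had 58.9%, against 55.9% and 59.3% in those classes. From the summit outwards the share fell from 66.2% in the 50 bases left of it to 57.5% in those 201 to 250 bases to the left.

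Over the genome, 513 of 13968 coding genes (3.67%) were the nearest gene of such a peak. Genes of many starts can be near more peaks, and what part this plays in the lists below was not tested. Signalling ligands and receptors had 5 of 32 (15.6%, exact binomial interval 5.28 to 32.8%), a share above that of all coding genes, namely InR, arr, a co-receptor of Wingless, rho, a protease that releases EGF ligands, the FGF receptor gene htl and Pvr, a PDGF and VEGF receptor homologue. After InR their signals were low, 275.6 at arr, 199.2 at rho, 195.3 at htl and 195.0 at Pvr, near the lowest of all peaks. The peak at htl overlaps the promoter peak of the gene (596.5), so its replicate ranks of 1101, 1767 and 1422 belong to both. Neural fate genes had 4 of 18 (22.2%, exact binomial interval 6.41 to 47.6%), also above it. brat, a translational repressor gene, had 1495 (ranks 383, 185 and 210), elav, a neuronal RNA-binding protein gene, 464.7, nerfin-1 247.2 and grh 208.1.

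Lists with 1 or 2 genes follow, and the exact binomial interval of each includes the 3.67% of all coding genes. Muscle and mesoderm genes had 2 of 17 (11.8%), rols (478.8), needed for myoblast fusion, and Mef2 (203.9), the muscle transcription factor gene. Polycomb and trithorax group genes had 2 of 25 (8%), ph-d and Trl (440.8), the gene of the GAGA factor itself. Clock genes had 2 of 10 (20%), Pdp1 with peaks of 827.0 and 236.4 and sgg, a GSK-3 kinase gene, with 353.9 and 212.2. Axon guidance and adhesion genes had 1 of 23 (4.35%), the netrin receptor gene unc-5 (540.4). Ecdysone response genes had 1 of 14 (7.14%), Hr38 (243.8), and cuticle protein genes 1 of 94 (1.06%), Cpr67Fb (319.9).

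The lists with none were the cytoplasmic ribosomal protein genes (0 of 93, exact binomial upper limit 3.89%), mitochondrial ribosomal protein genes (0 of 73, upper limit 4.93%), chemoreceptor genes (0 of 179, upper limit 2.04%), segmentation genes (0 of 22), insulator and interband protein genes (0 of 18), heat shock and chaperone genes (0 of 18) and Hox genes (0 of 8). Among the ribosomal protein genes 72 of 93 had a promoter peak, and among the insulator genes 9 of 18, while chemoreceptor genes had 1 of 179. Among these 7 upper limits, the 3.67% of all coding genes was above that of the chemoreceptor genes and below the others.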

How the data were processed

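ChIP-seq region lists of 3 replicates, of the pooled replicates and of the IDR peaks were used, in dm6 and narrowPeak layout. Per the text files deposited with them, regions were called against 1 common control alignment. The replicate and pooled lists hold 30000 regions each, background included. The aligner, peak caller and IDR cutoff were not given in the sources used here. Column 7 is the authors' signal value, whose scale differs between lists, and was used to describe and rank regions within 1 list. The deposited −log10 q was used only for counts at 2 or more. The dm3 lists were not used.

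Summits were set against every transcript start of the Ensembl 115 annotation (18277 genes, 13968 coding, 23697 distinct starts, no transposable elements), with Python 3.11.15, numpy 2.4.6, pandas 2.3.3 and scipy 1.17.1. Positions are 1-based. Overlap means at least 1 bp, and where several regions overlap a peak the strongest was taken. A peak with no region ranks lowest. Tests are two-sided exact sign-flip permutation tests over 3 replicates, with Benjamini-Hochberg adjustment, and shares have exact binomial 95% intervals covering counting error only. The measures were tested on simulated data. The 694 peaks (members), the gene lists and the motifs were chosen with earlier results of these data known.

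Genes named are those nearest the 20 strongest members, up to 3 per gene list (genes beyond that were added after their values were seen), those with the strongest promoter pairs and those nearest to 3 or more members. All 18 motifs searched are given and counted in the adjustment. The symbols Dl, calypso, zw5 and Hsp67Bb matched no gene. Some windows chosen by these rules are not reported here.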

Additional observations from a re-analysis of the deposited data

How the results depend on the processing

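No paired analysis was possible because the study has 1 group, so no replicate block between groups could be fitted; class differences were taken within each replicate. With 3 replicates the exact sign-flip test cannot reach 0.05, so directions and sizes are compared. Of the values set against 16 alternatives, those that changed sign follow, with the main values that moved; many small motif differences moved by over 1.5 times without a change of sign. The causes were not tested except where fewer peaks or windows explain a count.

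With the 3153 strongest peaks there were 351 members, 25.96 per Mb and 275 coding genes; 92.8% of summits stayed at this distance, 29.1% had a promoter peak at the gene, recurrence minus distal peaks was -0.855, and 7 motifs were above promoter peaks and 8 below distal peaks in every replicate. Against distal peaks, motif 7 was then -0.0603, motif 6 -0.214, ETS -0.0562, Pho -0.185 and homeodomain -4.38, and homeodomain minus promoter peaks -5.2. With the outermost starts the upstream share was 39.7%, or -1.77 against bases. With the 3153 strongest regions of each replicate as its top regions, recurrence minus promoter peaks was -4.58 and minus distal peaks 8.18. Promoters of 250 bp gave 24.9% with a promoter peak.

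With windows of 50 bp, AT content minus promoter peaks was 0.366 and minus distal peaks -0.199, 1 motif was above promoter peaks in every replicate, and these motif differences turned: CTCF core -0.166 (promoter) and -0.0533 (distal), initiator -0.802 (promoter), CACTGTGC -0.197 (promoter) and -0.0693 (distal), TACACTGA -0.12 (promoter), Pho 0.0413 (promoter), homeodomain 0.459 (distal). With 250 bp, CTCF core was -0.118 and initiator -3.46, Zelda 0.088 and ETS 0.0941 (promoter), and homeodomain 0.368 (distal). At pooled summits CTCF core was -0.253 and Pho 0.0127 (promoter), motif 7 -0.00982, motif 6 -0.101 and ETS -0.119 (distal), and 8 motifs were below distal peaks. Among peaks that overlap no other there were 43.8 members per Mb, 93.8% of summits stayed, 34.5% had a promoter peak at the gene, AT minus distal peaks was -0.178, CTCF core minus promoter peaks -0.289 and, minus distal peaks, CACTGTGC -0.0995, motif 6 -0.0828 and ETS -0.06999.

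Leaving out a replicate kept peaks with a top region in both others, which fixes recurrence at 100% in every class. It gave 491 to 558 members, 36.3 to 41.3 per Mb, 36.4 to 39.8% with a promoter peak at the gene and 6 to 8 motifs below distal peaks. CTCF core minus promoter peaks ranged from -0.167 to 0.769, initiator minus promoter peaks from -1.77 to 0.383, motif 7 minus distal peaks from -0.343 to 0.0355 CACTGTGC minus distal peaks from -0.236 to 0.699, Zelda minus promoter peaks from -0.147 to 0.261, TACACTGA minus promoter peaks from 0.0335 to 1.03 and, minus distal peaks, motif 5 from -0.0909 to 0.205, motif 6 from -0.0133 to 0.0669, ETS from -0.0322 to 0.0637, Pho from -0.473 to -0.106 and homeodomain from -2.16 to -1.2. The rank differences kept their signs, at -13.5 to -5.87 and 6.22 to 8.88.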
